A study of Aphis gossypii with 6 samples.

Results

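Histones and the enzymes that modify, read and move them were examined in the whole-body RNA of Aphis gossypii, the cotton aphid, which feeds on plant sap. The genes were those of the deposited table whose product description names a histone, a bromodomain, a chromodomain, a chromobox, polycomb, DNA (cytosine-5) methylation, methyl-CpG binding, SWI/SNF or the nucleosome. This text rule took 119 of the 14013 genes listed, and 108 of the 119 had enough reads to be tested. RNA was sequenced from the beta-cypermethrin-resistant strain RGL, found in a wolfberry field, and from the beta-cypermethrin-sensitive strain SGL, whose genotype is labelled WT, with 3 libraries of pooled aphids per strain. Beta-cypermethrin is a pyrethroid insecticide, and neither strain was exposed to it before sampling. The labels give no age, morph or host plant for the aphids, and they do not tell whether replicates were separate cultures, so a p-value here covers the spread among these libraries only, part of which may be technical. Each condition rests on 1 strain, and resistance cannot be told apart from whatever else differs between the strains.

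DNA in the nucleus is wound around nucleosomes, each built of the core histones H2A, H2B, H3 and H4, with the linker histone H1 on the DNA between them. Enzymes add or remove acetyl and methyl groups on the histone tails, reader proteins with bromodomains or chromodomains bind the marked tails, and remodelling ATPases slide or evict nucleosomes. Polycomb and trithorax proteins hold developmental genes silent or active, and aphids keep a working set of DNA methyltransferases, unlike flies. Most histone protein is made from clustered, replication-coupled genes whose RNA ends in a stem-loop in place of a poly(A) tail in animals, while variants such as H3.3 are made from polyadenylated RNA throughout the cell cycle. The sources used here do not state whether RNA was selected by its poly(A) tail.

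Library totals lay between 31290134 and 46681719 counts in the resistant strain and between 31653431 and 36110420 in the susceptible strain, and 11149 genes passed the low-count filter. Resistant replicate 1 stood apart from the other libraries of its strain, with a chi-square per degree of freedom of 101 and 127 against resistant replicates 2 and 3, whereas replicates 2 and 3 differed by 19.8 and the 3 susceptible pairs by 7.05 to 8.29. Marker lists of several tissues were present in every library, as a whole body should give. The summed level of muscle genes was 15585 to 17641 CPM (counts scaled to a common library size with TMM factors) in the resistant and 14368 to 15327 CPM in the susceptible libraries. Gut genes summed to 13448 to 16915 CPM in the resistant and 5468 to 5735 CPM in the susceptible libraries. Nervous system genes summed to 1145 to 1171 CPM in the resistant and 1219 to 1246 CPM in the susceptible libraries. In whole bodies, fewer cells of a type and less RNA per cell cannot be told apart.

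Chromatin genes were more often lower than higher in the resistant strain. Of the 108 tested, 25 fell and 10 rose (adjusted p under 0.05, from edgeR's quasi-likelihood F test with the Benjamini-Hochberg method over all tested genes), 23.1% and 9.26%. Over all 11149 tested genes 14.4% fell and 21.4% rose. The median log2 fold change, resistant over susceptible, was -0.15 among the chromatin genes and -0.00 among all genes, and 73 of the 108 lay below zero. Changes were small in size. At least a 2-fold change was reached by 5 of the genes that rose and 3 of those that fell, out of 108 tested. Over all 11149 tested genes 926 (8.31%) were higher and 219 (1.96%) lower by at least 2-fold. In 43 of the 108 every resistant library lay below every susceptible library, against 25.8% of all genes, and in 14 every resistant library lay above, against 28.2%. The summed level of all 119 genes was 11301, 11218 and 11447 CPM in resistant replicates 1 to 3 and 12617, 12520 and 12609 CPM in susceptible replicates 1 to 3, which do not overlap.

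With libraries scaled by their totals alone, which moved the median of all genes to -0.15, 35 chromatin genes fell and 6 rose, 32.4% and 5.56%, beside 20.8% and 15.8% of all genes. The chromatin median stood 0.14 below the median of all genes with either scaling. When 1 resistant library was left out the number that fell was 36 (replicate 1), 16 (replicate 2) or 25 (replicate 3), and it was 11, 10 or 10 when a susceptible library was left out. The number that rose was 15, 7 or 8 without the same resistant libraries and 5 whichever susceptible library was left out. Of all genes 28.6%, 17.1% and 21.8% rose without resistant replicates 1 to 3, and 14.8%, 14.9% and 14.1% without susceptible replicates 1 to 3. Over all genes the share that fell was 24.9%, 10.4% and 15.2% without the resistant and 7.22%, 6.96% and 6.97% without the susceptible replicates. In each of these fits a greater share of the chromatin genes than of all genes fell and a smaller share rose. Without susceptible replicate 1, 2 or 3 the shares that fell were close, with 10.2%, 9.26% and 9.26% of the chromatin genes.

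**Figure D1:**
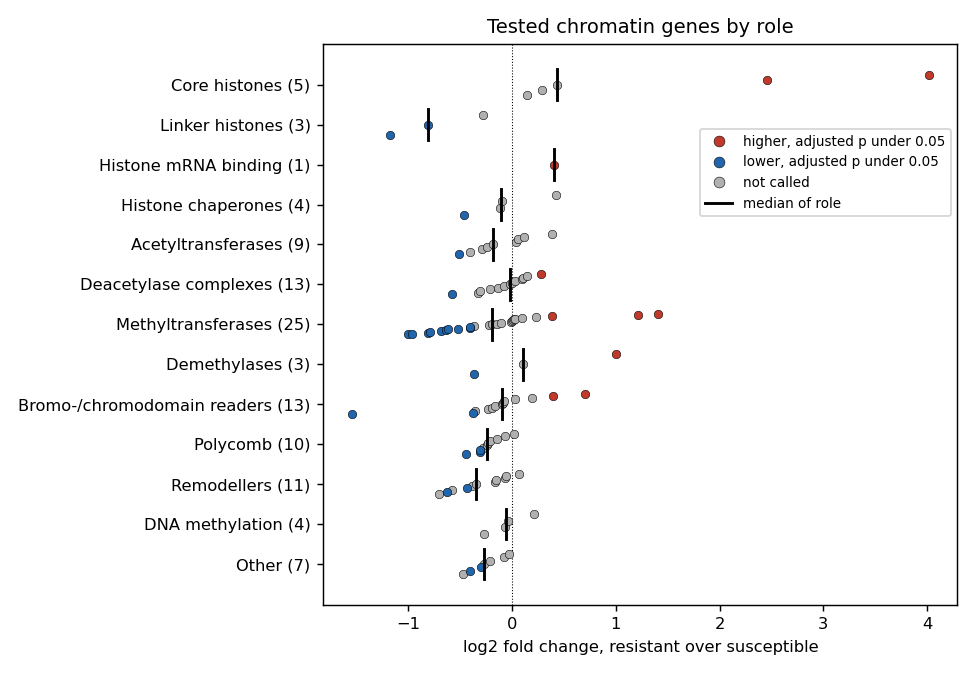
Log2 fold change, resistant over susceptible (x axis), of the 108 tested chromatin genes, 1 point per gene, by role (y axis, number tested in brackets); red and blue points have an adjusted p under 0.05 and the black bar is the median of the role. Methyltransferases hold 10 of the 25 genes that fell, and the 2 points furthest to the right are the histones H2B-like and H2A.

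The product text was checked against the other annotations of the same row. In 100 of the 119 the Pfam domain, the Swiss-Prot name or the KOG class also named a chromatin domain or role, and these held 24 of the 25 genes that fell and 6 of the 10 that rose. The other 4 that rose are named for chromatin by text alone. LOC114132308, called a histone-lysine N-methyltransferase 2D-like protein, carries a chitin-binding Peritrophin-A domain, a domain of gut lining and cuticle proteins. LOC114119496, called a bromodomain-containing protein, carries an insect cuticle protein domain. LOC114128176 and LOC114129048 carry no Pfam domain. Among the 90 tested genes with such support the median log2 fold change was -0.17, and 24 fell and 6 rose. At least a 2-fold change was reached by 3 of these that rose and 3 that fell. The gene that fell without it was LOC114124988, a bromodomain-containing protein 7, a subunit of a SWI/SNF complex in vertebrates, whose only Pfam entry is a domain of unknown function.

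Of the 5 tested core histones, the scarce H2A and H2B genes rose and the 3 variant genes did not pass. Over all tested genes 21.4% rose. The H2B-like LOC114123379 had 71, 73 and 53 reads in resistant replicates 1 to 3 and 5, 4 and 3 reads in susceptible replicates 1 to 3. As CPM this is 2.65, 1.58 and 1.45 in the resistant and 0.131, 0.116 and 0.0898 in the susceptible libraries. Every resistant library lay above every susceptible one, and resistant replicate 1 was the highest. With fewer than 10 reads in each susceptible library, the H2B-like gene passed the low-count filter through the resistant libraries alone. The H2B-like gene rose by 4.01 ± 0.44 on the log2 scale (SE, adjusted p = 0.000333), a call kept under all 12 alternatives (highest adjusted p = 0.00414). Next to it in the reference annotation, with 0 genes between, lies the H2A gene LOC114123380, with 114, 133 and 110 reads in the resistant and 10, 27 and 27 reads in the susceptible libraries. Its levels were 4.25, 2.88 and 3.002 CPM in the resistant and 0.261, 0.782 and 0.808 CPM in the susceptible libraries, with no overlap. It rose by 2.45 ± 0.41 on the log2 scale (adjusted p = 0.00258), a call kept under all 12 alternatives (highest adjusted p = 0.0122). The 10 reads in susceptible replicate 1 lay just under the low-count filter, which scales with depth. The susceptible libraries on their own would therefore not have passed the H2A gene, and it passed with the help of the resistant libraries, where it is high. Canonical histone genes are near-identical copies, and the sources used here do not state how shared reads were counted, so levels of single copies are uncertain.

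The 3 canonical H3 genes were too low to test. LOC114124813 had 4, 5 and 7 reads in the resistant and 7, 0 and 3 in the susceptible libraries. LOC114123382, a partial model, had 6 reads in all resistant and 2 in all susceptible libraries, and LOC114121687 had 0 in every library. The variant H3.3, LOC114128852, was by contrast the most abundant chromatin transcript per length, at 780.2 ± 47.2 FPKM in the resistant and 706 ± 21.7 FPKM in the susceptible strain (the authors' depth- and length-scaled values, mean ± SD, n = 3 per strain). In CPM it stood at 1272, 961 and 1038 in the resistant and 915, 869.9 and 891 in the susceptible libraries. These did not overlap, but the difference of 0.29 ± 0.12 on the log2 scale did not pass (adjusted p = 0.0981, or 0.0218 without resistant replicate 1, and 0.0218 to 0.263 over the alternatives that leave out a library). A second H3.3-like gene, LOC114129869, was far scarcer, at 4.46 ± 0.472 CPM in the resistant and 3.27 ± 0.950 CPM in the susceptible strain, with overlapping libraries (adjusted p = 0.201). The H2A variant H2AV, LOC114124727, had 443, 326 and 363 CPM in the resistant and 342, 340.4 and 344 CPM in the susceptible libraries, which overlap (0.14 ± 0.12, adjusted p = 0.38). With library totals alone 4 of the 5 tested core histones lay above zero in place of 5.

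Of the 3 linker histones 2 fell, beside 14.4% of all tested genes, and the third did not pass. Of the 2 that fell, 1 kept its call under all 12 alternatives. The most abundant, the H1-like LOC114130140, had 6.89, 7.26 and 8.13 CPM in the resistant and 12.97, 12.2 and 13.8 CPM in the susceptible libraries. No library of one strain reached the range of the other. The gene fell, with a log2 fold change of -0.81 ± 0.14 (adjusted p = 0.00334), a call kept under all 12 alternatives (highest adjusted p = 0.0227). LOC114130143, an H1A-like gene, was scarcer, with 18, 24 and 18 reads in the resistant and 40, 45 and 48 reads in the susceptible libraries. It had 0.671, 0.520 and 0.491 CPM in the resistant and 1.05, 1.303 and 1.44 CPM in the susceptible libraries and changed by -1.18 ± 0.32 (adjusted p = 0.0227), a call lost without resistant replicate 2 or 3 or without susceptible replicate 2 or 3 (adjusted p between 0.0617 and 0.099, lowest over the alternatives 0.011). The third, LOC114124809, overlapped between strains at 1.99 ± 0.465 CPM in the resistant and 2.4 ± 0.548 CPM in the susceptible strain (adjusted p = 0.478).

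**Figure D2:**
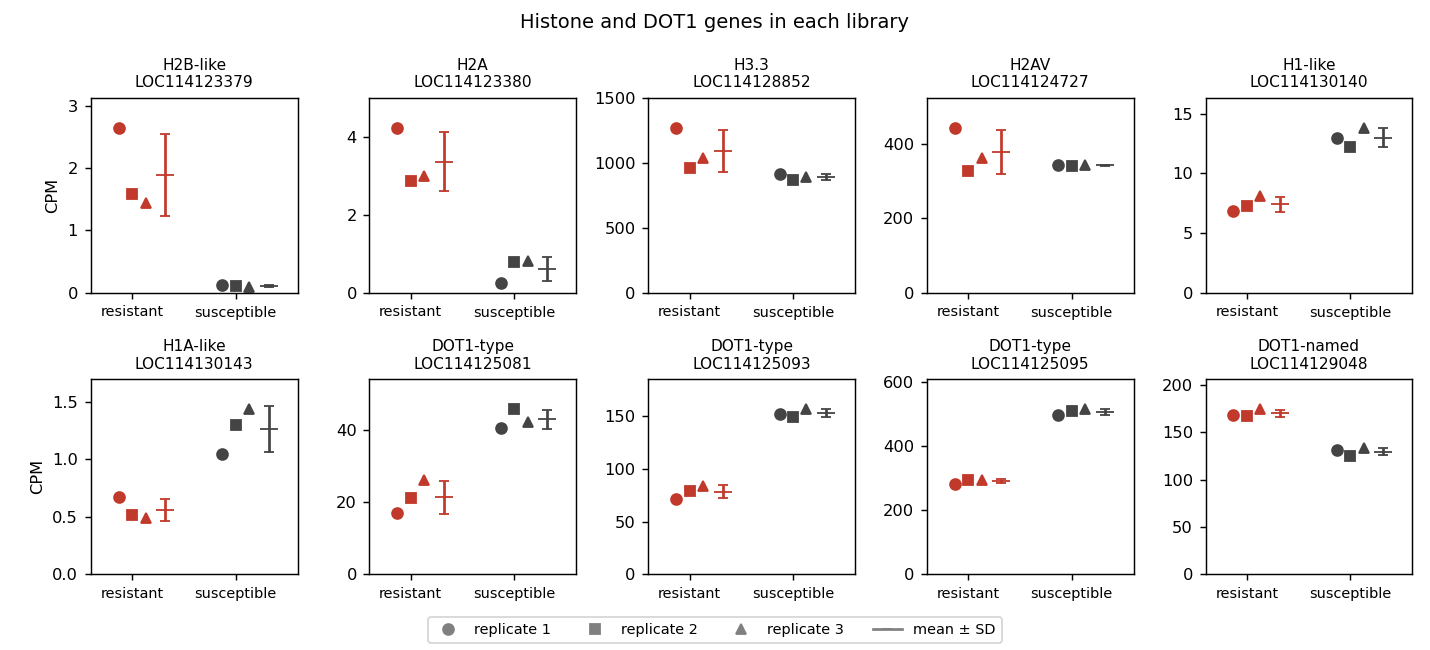
CPM (y axis, starting at 0) of 10 histone and DOT1 genes in each resistant and susceptible library (x axis), with a symbol for each replicate and the mean ± SD beside it (n = 3). H2B-like and H2A are higher in every resistant library, H1-like, H1A-like and the 3 DOT1-type genes are lower in every resistant library, and H2AV overlaps.

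The histone RNA hairpin-binding protein, which holds the stem-loop of replication-coupled histone RNA, is encoded by LOC114124206. It had 56.3, 54.02 and 45.5 CPM in the resistant and 40.8, 37.7 and 38.8 CPM in the susceptible libraries, with no overlap, and rose by 0.41 ± 0.11 on the log2 scale (adjusted p = 0.0194), a call lost without resistant replicate 2, without susceptible replicate 1, 2 or 3 or with library totals alone (adjusted p between 0.0585 and 0.0965, lowest over the alternatives 0.00214). Genes of S phase, when such histones are made, were split. Of 48 tested genes matched to DNA replication 4 rose and 6 fell, 8.33% and 12.5%, beside 21.4% and 14.4% of all tested genes. The median log2 fold change of the 48 was -0.02. Their summed levels were 1503 to 1829 CPM in the resistant and 1648 to 1672 CPM in the susceptible libraries. Of 24 mitosis genes 1 rose and 1 fell (4.17% each, median -0.06, summed 647 to 853 CPM in the resistant and 789.7 to 829.98 CPM in the susceptible libraries). Their part in the histone difference was not tested.

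Histone chaperones carry free histones to and from DNA. The most abundant was the nucleosome assembly protein LOC114130609, the second most abundant chromatin transcript per length, at 507 ± 61.3 FPKM in the resistant and 766 ± 19.7 FPKM in the susceptible strain. Its levels were 876, 774 and 917 CPM in the resistant and 1152, 1221 and 1162 CPM in the susceptible libraries. All resistant libraries were lower, by a log2 fold change of -0.46 ± 0.10 (adjusted p = 0.00921), a call lost without susceptible replicate 2 (adjusted p = 0.0558, lowest over the alternatives 8.47e-06). The H3-H4 chaperone asf1, LOC114129978, was higher in every resistant library, with 8.23, 8.71 and 10.6 CPM in the resistant and 7.14, 6.66 and 6.77 CPM in the susceptible libraries, but did not pass (0.42 ± 0.16, adjusted p = 0.0712). RBBP4, LOC114122182, a subunit shared by assembly, deacetylase and polycomb complexes, overlapped between strains at 188 ± 16.97 CPM in the resistant and 204 ± 5.79 CPM in the susceptible strain.

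Histone methyltransferases were the largest role, and of 25 tested 10 fell and 3 rose, beside 14.4% and 21.4% of all tested genes, with a median log2 fold change of -0.19. The number that fell was 11, 8 or 10 when resistant library 1, 2 or 3 was left out and 5, 6 or 5 when a susceptible one was, and with library totals alone 11 fell and 1 rose. Of all genes 24.9%, 10.4% and 15.2% fell without these resistant libraries and 7.22%, 6.96% and 6.97% without the susceptible ones. With library totals alone 20.8% of all genes fell and 15.8% rose. Within the class the steepest falls were in the DOT1 type, which methylates lysine 79 of histone H3 on transcribed genes and lacks the SET domain of the other lysine methyltransferases. LOC114125095 had 282, 294 and 296 CPM in the resistant and 497, 510.2 and 515 CPM in the susceptible libraries. LOC114125093 had 71.9, 79.5 and 84.1 CPM in the resistant and 152, 149.6 and 157 CPM in the susceptible libraries. LOC114125081 had 16.8, 21.1 and 25.98 CPM in the resistant and 40.5, 45.6 and 42.2 CPM in the susceptible libraries. In all 3 the resistant libraries sat well below the susceptible ones with no overlap.

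The log2 fold changes of the DOT1 genes were -0.80 ± 0.08 for LOC114125095 (adjusted p = 0.000202), -0.96 ± 0.09 for LOC114125093 (adjusted p = 0.000124) and -1.003 ± 0.16 for LOC114125081 (adjusted p = 0.00197), and each call was kept under all 12 alternatives. LOC114125095 and LOC114125081 carry the DOT1 domain, and all 3 have a lysine-79 methyltransferase as their Swiss-Prot match. LOC114125081 and LOC114125093 were not found in the reference annotation. Whether the 3 are separate genes or parts of the same gene was not tested. Text gives the same name to LOC114129048 and LOC114131930, which have no such support. LOC114129048 rose, with 169, 167 and 175 CPM in the resistant and 131, 125 and 133 CPM in the susceptible libraries (0.39 ± 0.07, adjusted p = 0.00465), a call lost with library totals alone (adjusted p = 0.0782, lowest over the alternatives 1.03e-05). LOC114131930, whose Pfam entry is a coiled-coil protein, did not pass at 2.57 ± 0.107 CPM in the resistant and 3.32 ± 0.517 CPM in the susceptible strain.

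Among SET-domain enzymes, trithorax, LOC114126838, which keeps homeotic genes active in Drosophila, had 78.8, 97.3 and 110.2 CPM in the resistant and 148, 148 and 149 CPM in the susceptible libraries. It fell in every resistant library, by a log2 fold change of -0.63 ± 0.12 (adjusted p = 0.00477), and passed under all 12 alternatives (highest adjusted p = 0.0256). SMYD3, LOC114123977, did the same, with 34.2, 42.4 and 47.6 CPM in the resistant and 64.2, 62.3 and 63.9 CPM in the susceptible libraries (-0.61 ± 0.13, adjusted p = 0.00659, at most 0.0335 over the alternatives). SETD1B-A, LOC114125480, which methylates lysine 4 of histone H3, averaged 99.4 ± 11.6 CPM in the resistant and 131 ± 2.45 CPM in the susceptible strain (adjusted p = 0.0161). It was no longer called without susceptible replicate 1, 2 or 3 (highest adjusted p = 0.0645). Writers of the heterochromatin mark at lysine 9 were mixed. EHMT2, LOC114128525, had 39.6, 68.1 and 74.7 CPM in the resistant and 99.6, 90.4 and 103 CPM in the susceptible libraries and fell, with a log2 fold change of -0.68 ± 0.21 (adjusted p = 0.0349). Its call was lost without resistant replicate 2 or any 1 susceptible replicate (highest adjusted p = 0.102).

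SUV39H2, LOC114131445, averaged 28.8 ± 3.4 CPM in the resistant and 38.1 ± 3.14 CPM in the susceptible strain (adjusted p = 0.0341), with the same losses as EHMT2 (highest adjusted p = 0.127). The SUV39H2-like LOC114131380 (0.03 on the log2 scale, adjusted p = 0.925), the eggless-like LOC114123773 (-0.10, adjusted p = 0.423) and the SETDB1-like LOC114120564 (0.01, adjusted p = 0.979) did not pass. Swiss-Prot matches LOC114131380 to trithorax, so its place among writers of lysine 9 rests on the product text. The remaining genes that fell were LOC114119070, named for lysine 4 of H3 (-0.79 ± 0.21, adjusted p = 0.0206), and set-23, LOC114119746 (-0.52 ± 0.13, adjusted p = 0.0149). The Swiss-Prot match of LOC114119070 is a different enzyme, PR-Set7, so its target is uncertain. LOC114119070 was lost without susceptible replicate 1, 2 or 3 (highest adjusted p = 0.0719), and set-23 without susceptible replicate 1 or 3 (highest adjusted p = 0.0756).

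The 2 other genes of the class that rose carry no methyltransferase domain in the table. The Peritrophin-A gene LOC114132308 had 299, 213 and 171 CPM in the resistant and 92.9, 99.4 and 101 CPM in the susceptible libraries (1.22 ± 0.18, adjusted p = 0.00162), a call kept under all 12 alternatives (highest adjusted p = 0.0131). LOC114128176, a partial model with no domain, had 9.31, 37.2 and 40.6 CPM in the resistant and 10.7, 11 and 11.3 CPM in the susceptible libraries. Resistant replicate 1 was therefore below all susceptible libraries while resistant replicates 2 and 3 were far above them. Its log2 fold change of 1.41 ± 0.45 (adjusted p = 0.0408) had a call that was lost without resistant replicate 2 or 3, without susceptible replicate 1, 2 or 3 or with library totals alone (adjusted p between 0.0724 and 0.126, lowest over the alternatives 1.8e-11).

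Demethylases reverse these marks, and the 3 tested differed in direction. The lysine-specific demethylase 1A-like LOC114126851, an amine oxidase of the type that strips methyl groups from lysine 4 of H3, had 10.5, 10.5 and 13.1 CPM in the resistant and 5.33, 5.07 and 6.65 CPM in the susceptible libraries. It rose without overlap (1.001 ± 0.18, adjusted p = 0.00338), a call kept under all 12 alternatives (highest adjusted p = 0.0239). Its second copy by name, LOC114126711, averaged 12.04 ± 0.857 CPM in the resistant and 11.2 ± 1.596 CPM in the susceptible strain (adjusted p = 0.619). The JmjC enzyme LOC114125970 was the most abundant demethylase per length, with 362, 288 and 273 CPM in the resistant and 393, 401 and 394 CPM in the susceptible libraries. It fell (-0.36 ± 0.12, adjusted p = 0.0403), a call lost without resistant replicate 2 or 3 or without susceptible replicate 1, 2 or 3 (adjusted p between 0.0923 and 0.132, lowest over the alternatives 4.72e-07).

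Of 9 tested acetyltransferases, which loosen chromatin by acetylating histone tails, 1 (11.1%) fell and 0 rose, beside 14.4% and 21.4% of all tested genes. The gene that fell was the most abundant one per length, the MOZ-type KAT6B, LOC114125302. It had 445, 485 and 481 CPM in the resistant and 683, 644 and 686 CPM in the susceptible libraries. Its libraries did not overlap (-0.51 ± 0.09, adjusted p = 0.00287), a call kept under all 12 alternatives (highest adjusted p = 0.0247). The p300-like LOC114120908, a general coactivator, lay lower in every resistant library, at 345 ± 10.1 CPM in the resistant and 393 ± 6.099 CPM in the susceptible strain, but did not pass (-0.18, adjusted p = 0.102). Without resistant replicate 1, 3 acetyltransferases fell and 1 rose, where 24.9% of all genes fell and 28.6% rose. With library totals alone 2 fell, beside 20.8% of all genes.

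Of 13 deacetylases and their complex subunits 1 rose and 1 fell, 7.69% each, beside 21.4% and 14.4% of all tested genes. SAP130-A, LOC114124185, a subunit of the Sin3 deacetylase complex, had 101, 111 and 108 CPM in the resistant and 158, 157 and 160 CPM in the susceptible libraries. It fell with a narrow spread in both strains (-0.57 ± 0.08, adjusted p = 0.000842), a call kept under all 12 alternatives (highest adjusted p = 0.00912). The catalytic Rpd3, LOC114119092, had 148, 167 and 172 CPM in the resistant and 137, 135 and 129 CPM in the susceptible libraries and rose by 0.28 ± 0.09 on the log2 scale (adjusted p = 0.0326), a call lost without resistant replicate 2 or 3, without susceptible replicate 1, 2 or 3 or with library totals alone (adjusted p between 0.0693 and 0.388, lowest over the alternatives 5.18e-05). SAP18, LOC114131171, the most abundant of the class per length, overlapped between strains at 88.5 ± 6.25 CPM in the resistant and 93.4 ± 5.51 CPM in the susceptible strain. The class median of -0.02 became -0.18 with library totals alone, where 3 fell and 0 rose, beside 20.8% and 15.8% of all genes. Without resistant replicate 1, 3 fell, beside 24.9% of all genes.

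Among bromodomain and chromobox readers 2 of 13 rose and 2 fell, 15.4% each, beside 21.4% and 14.4% of all tested genes. The number of readers that rose was 0 whichever susceptible library was left out, beside 14.8%, 14.9% and 14.1% of all genes. The heterochromatin protein 1 gene, LOC114121714, named chromobox protein homolog 1-like, binds methylated lysine 9 of H3 and was the most abundant reader per length. It had 439, 359 and 363 CPM in the resistant and 290.5, 288 and 302 CPM in the susceptible libraries, all resistant ones higher (0.40 ± 0.10, adjusted p = 0.0166), a call lost without susceptible replicate 1, 2 or 3 (adjusted p between 0.0724 and 0.0794, lowest over the alternatives 0.000139). The cuticle-domain gene LOC114119496 rose as well, with 437, 316 and 248 CPM in the resistant and 199, 202 and 211 CPM in the susceptible libraries (0.71 ± 0.18, adjusted p = 0.0177), a call lost without susceptible replicate 1, 2 or 3 (adjusted p between 0.0671 and 0.0721, lowest over the alternatives 0.000113). The bromodomain gene LOC114124988 averaged 82.3 ± 4.54 CPM in the resistant and 107 ± 3.86 CPM in the susceptible strain (-0.37 ± 0.08, adjusted p = 0.0097), a fall not called without susceptible replicate 2 (adjusted p = 0.0536, the highest over the alternatives). LOC114130422, a scarce chromobox protein homolog 5-like gene, had only 3, 11 and 9 reads in the resistant and 21, 22 and 21 reads in the susceptible libraries. It passed the low-count filter, which scales with depth, through the susceptible libraries alone. Its fall of -1.54 ± 0.44 on the log2 scale (adjusted p = 0.0265) had a call that was lost without resistant replicate 1, 2 or 3, without susceptible replicate 1, 2 or 3 or without the low-count filter (adjusted p between 0.0506 and 0.0954, lowest over the alternatives 0.0233).

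Polycomb proteins, which keep developmental genes silent, gave 3 that fell and 0 that rose of 10 tested, beside 14.4% and 21.4% of all tested genes. The other 7 did not pass, 9 of the 10 lay below zero and the median log2 fold change was -0.23. The number that fell was 5, 2 or 3 when resistant library 1, 2 or 3 was left out and 0, 0 or 0 when a susceptible one was, and 5 with library totals alone. Over all genes 7.22%, 6.96% and 6.97% fell when a susceptible library was left out. The share was 24.9%, 10.4% and 15.2% without resistant libraries 1 to 3 and 20.8% with library totals alone. The class held suz12-B, LOC114129141, a core subunit of the complex that methylates lysine 27 of H3, with 133, 153 and 157 CPM in the resistant and 177, 187 and 183 CPM in the susceptible libraries. It fell without overlap (-0.31 ± 0.09, adjusted p = 0.0269), as did its accessory factor Pcl, LOC114130218 (-0.31 ± 0.09, adjusted p = 0.0299). Both calls were lost without susceptible replicate 1, 2 or 3 (highest adjusted p = 0.108 for suz12-B and 0.117 for Pcl). Sfmbt, LOC114128710, of a DNA-binding polycomb complex, had 58.3, 76.6 and 82.4 CPM in the resistant and 93.5, 96.5 and 106 CPM in the susceptible libraries (-0.44 ± 0.13, adjusted p = 0.032), a call lost without resistant replicate 2 or without susceptible replicate 1, 2 or 3 (adjusted p between 0.0533 and 0.111, lowest over the alternatives 0.000973). The catalytic subunit E(z), LOC114123060, counted here among the methyltransferases and not in the 10, did not pass, with a log2 fold change of 0.03 ± 0.10. Its partner EED, LOC114127211, did not pass either, at 0.02 ± 0.11. The most abundant gene of the class per length, LOC114130326, is named enhancer of polycomb but carries a phosphotyrosine interaction domain, and stood at 155 ± 0.567 CPM in the resistant and 171 ± 5.21 CPM in the susceptible strain (adjusted p = 0.16). Without resistant replicate 1 LOC114130326 was called lower (adjusted p = 0.0400), and also with library totals alone (adjusted p = 0.0343), within a range up to 0.388 over the alternatives without a library.

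Of 11 remodelling genes 2 fell and 0 rose, and their 18.2% is close to the 14.4% of all tested genes that fell. The median log2 fold change was -0.34, and 10 lay below zero. The number that fell was 4, 1 or 4 when resistant library 1, 2 or 3 was left out and 0, 1 or 0 when a susceptible one was. Of all genes 24.9%, 10.4% and 15.2% fell without these resistant libraries and 7.22%, 6.96% and 6.97% without the susceptible ones. Chromodomain-helicase 1-like LOC114125906 had 111, 175 and 167 CPM in the resistant and 233, 236 and 232 CPM in the susceptible libraries and fell (-0.63 ± 0.16, adjusted p = 0.0159), a call lost without susceptible replicate 1, 2 or 3 (adjusted p between 0.0522 and 0.0607, lowest over the alternatives 1.6e-06). SMARCAL1-type LOC114125397 averaged 19.01 ± 0.520 CPM in the resistant and 25.7 ± 2.73 CPM in the susceptible strain (-0.43 ± 0.12, adjusted p = 0.0232), a fall not called without resistant replicate 2 or susceptible replicate 1 or 3 (highest adjusted p = 0.116). The Mi-2 helicase LOC114120344, of the nucleosome remodelling and deacetylase complex, was the most abundant remodeller per length and did not pass, with 529.9, 652 and 673 CPM in the resistant and 701, 684 and 688 CPM in the susceptible libraries (-0.16 ± 0.11, adjusted p = 0.294). The long CHD7 gene LOC114126598 showed 333, 482 and 496 CPM in the resistant and 577, 559 and 581 CPM in the susceptible libraries, also without a call (adjusted p = 0.0754).

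DNA methylation genes gave no call, and all 4 overlapped between strains. The maintenance-type DNA methyltransferase LOC114123209 had 27.3, 35.4 and 43.5 CPM in the resistant and 30.4, 27.9 and 33.3 CPM in the susceptible libraries (0.22 ± 0.17, adjusted p = 0.35). Without resistant replicate 1 it was called higher (adjusted p = 0.00491, beside values up to 0.836 without another library). Its neighbour in the reference, LOC114123222, a second gene of that type, ranged widely in the resistant strain, with 3.61, 7.26 and 11.7 CPM in the resistant and 9.62, 8.28 and 9.43 CPM in the susceptible libraries. The 3C-like partial model LOC114129277 stood at 1.93 ± 0.394 CPM in the resistant and 2.01 ± 0.137 CPM in the susceptible strain. Methyl-CpG-binding protein LOC114120144, the most abundant of the 4 per length, stood at 34 ± 2.89 CPM in the resistant and 34.9 ± 2.64 CPM in the susceptible strain.

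The 7 genes outside these roles included 2 that fell (28.6%, beside 14.4% of all tested genes), and all 7 lay below zero. The H2A deubiquitinase MYSM1-like LOC114124609 averaged 17.7 ± 1.06 CPM in the resistant and 23.4 ± 0.997 CPM in the susceptible strain (-0.41 ± 0.11, adjusted p = 0.0228), a call lost without resistant replicate 2 or without susceptible replicate 1, 2 or 3 (adjusted p between 0.059 and 0.102, lowest over the alternatives 0.00116). Histone PARylation factor 1, LOC114122364, a partner of poly(ADP-ribose) polymerase in DNA repair, averaged 32.6 ± 1.67 CPM in the resistant and 40.05 ± 0.613 CPM in the susceptible strain (-0.29 ± 0.09, adjusted p = 0.0385). Its call was lost without resistant replicate 2 or 3 and without any 1 susceptible replicate (highest adjusted p = 0.133). The most abundant of the 7 per length, LOC114129582, named for a high mobility group nucleosome-binding domain but with no Pfam domain, overlapped at 151 ± 29.6 CPM in the resistant and 175 ± 7.26 CPM in the susceptible strain.

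**Figure D3:**
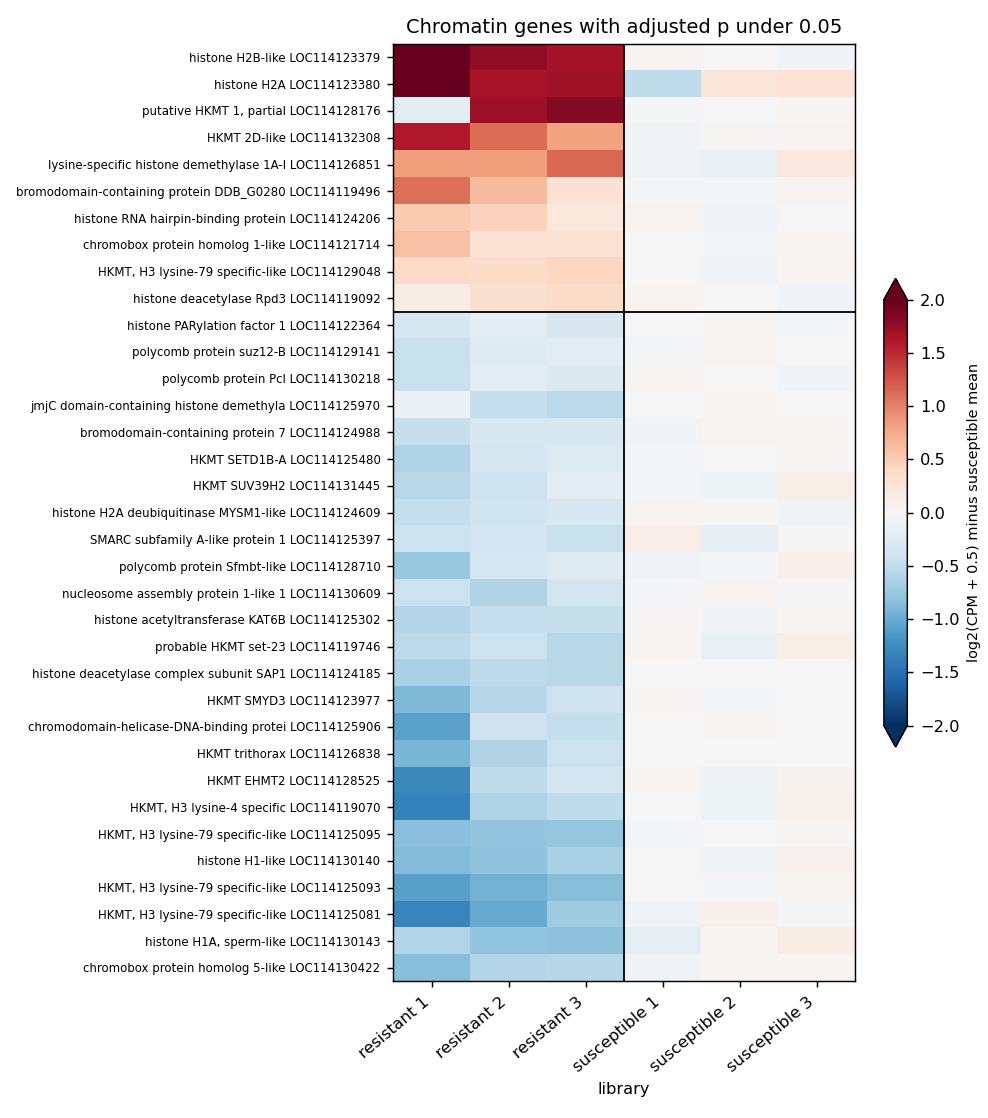
Log2(CPM + 0.5) minus the mean of the susceptible libraries (colour, cut at 2 and -2) for the 35 chromatin genes with an adjusted p under 0.05 (rows, ordered by fold change, HKMT for histone-lysine N-methyltransferase) in each library (columns). LOC114128176 is high in resistant replicates 2 and 3 alone, and EHMT2 is lowest in resistant replicate 1.

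Of the 11 genes too low to test, 6 had no count in any library, among them the KMT5B-like LOC114121201 and LOC114131282, the SETMAR-like LOC114126764, which carries a transposase domain, and the nucleosome assembly protein LOC114125308. The KAT2A-like LOC114128522 had 0, 0 and 0 reads in the resistant and 6, 8 and 0 reads in the susceptible libraries. The chromobox protein 1-like LOC114122260 had 0, 2 and 0 reads in the resistant and 8, 8 and 0 in the susceptible libraries. The SETDB1-like partial model LOC114122701 had 0, 16 and 8 reads in the resistant and 0, 0 and 7 in the susceptible libraries. Each is close to zero, and none allows a comparison at this depth.

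Transcript length moved with the direction of these differences. Effective lengths, taken from the ratio of the deposited counts to the deposited FPKM, had a median of 2411 bases in the 108 tested chromatin genes and 1892 bases in 10957 other tested genes. Among genes under 2000 bases the median log2 fold change was -0.06 in 45 chromatin genes and 0.07 in 5905 others. Between 2000 and 4000 bases it was -0.13 in 41 chromatin genes and -0.03 in 3881 others, and over 4000 bases it was -0.305 in 22 chromatin genes and -0.17 in 1171 others. Longer genes were thus lower in the resistant strain among chromatin genes and others alike, and in each length class the chromatin median was the lower one. The share that fell was 22.2% of the short, 19.5% of the middle and 31.8% of the long chromatin genes, beside 10.8%, 16.2% and 26.9% of the others. Under 2000 bases the chromatin share stayed the higher one whichever library was left out. Between 2000 and 4000 bases it did so except without resistant replicate 1 (26.8%, beside 28.2% of the others). Over 4000 bases it was 59.1%, 22.7% and 40.9% without resistant replicates 1 to 3, beside 41.1%, 22.1% and 29.6%. Without susceptible replicates 1 to 3 it was 13.6% each time, beside 14.9%, 13.5% and 13.9%.

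Resistant replicate 1 also moved with length. Its median deviation from the other resistant libraries, on the log2(CPM + 0.5) scale, was 0.10 in short, -0.19 in middle and -0.31 in long chromatin genes, beside 0.03, -0.04 and -0.22 in the others. Without resistant replicate 1 the medians were -0.07, -0.09 and -0.21 in the chromatin genes and 0.06, -0.02 and -0.10 in the others. Across the 108 genes the rank correlation of length with the log2 fold change was -0.23 and with the deviation of resistant replicate 1 was -0.45, as a description of genes that share their libraries. The part of length, or of resistant replicate 1, in the differences beyond these values was not tested.

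**Figure D4:**
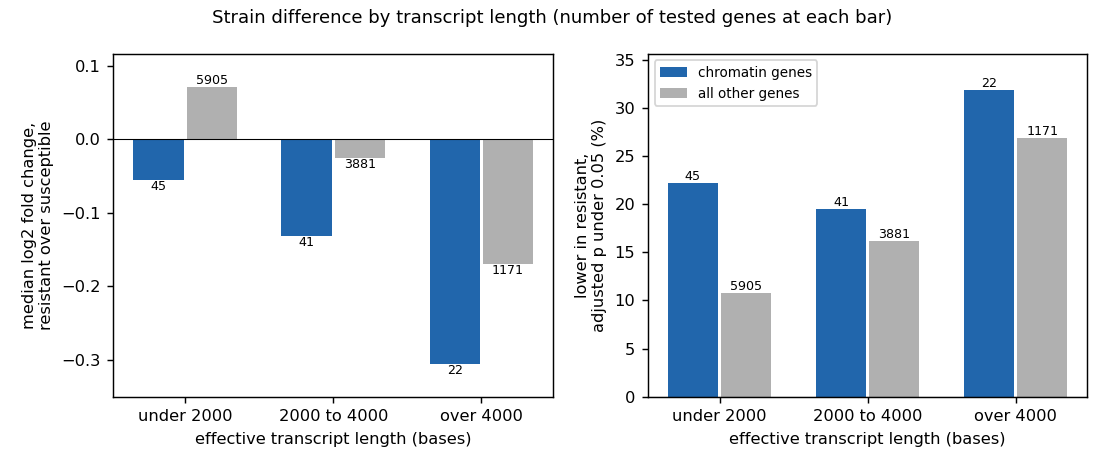
Median log2 fold change, resistant over susceptible (left), and percent of tested genes that fell (right), by effective transcript length in bases (x axis), for chromatin genes (blue) and all other genes (grey), with the number of genes at each bar. In this fit on all libraries the chromatin bars lie below the others on the left and above them on the right in all 3 length classes.

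Chromatin genes outside the text rule, matched by such names as SET domain, sirtuin, INO80, PHD finger or chromatin, gave 10 that fell and 4 that rose of 58 tested, with a median log2 fold change of -0.21. The 17.2% that fell is close to the 14.4% of all tested genes, and 6.90% rose, beside 21.4%. Of the 4, 3 are calumenin or sarcalumenin genes, calcium-binding proteins caught by a shared string of letters. The other is LOC114121729, a SET domain-containing protein, at 39.7 ± 14.9 CPM in the resistant and 18.9 ± 2.24 CPM in the susceptible strain. Among those that fell were inhibitor of growth protein 3-like LOC114119465, a subunit of acetyltransferase complexes in other animals (-0.88 ± 0.10, adjusted p = 0.000445), polyhomeotic-like LOC114121482, a polycomb protein (-0.41, adjusted p = 0.00996), the INO80 ATPase LOC114121544 (-0.35, adjusted p = 0.0225) and sirtuin-1, LOC114128361 (-0.29, adjusted p = 0.0195). Germline and embryo genes gave 2 that rose and 0 that fell of 16 (median 0.04), with summed levels of 960 to 1071 CPM in the resistant and 1007 to 1044 CPM in the susceptible libraries. Of 40 gut genes 30 rose and 0 fell, of 22 muscle genes 5 rose and 6 fell, and of 24 nervous system genes 3 rose and 7 fell. Their part in the chromatin differences was not tested.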

How the data were processed

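Per the labels' protocols, total RNA came from RNAiso Plus extraction and libraries from an NEBNext Ultra kit. HISAT2 and fastp 0.22.0 stand in the submitters' processing notes. The sources used here state no counter, annotation, genome build or strand setting, so overlapping, antisense and near-identical genes cannot be told apart. The authors deposited 1 table of 14013 genes that holds raw read counts and FPKM for each library.

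Counts were fitted over the whole table in R 4.3.3 with edgeR 4.0.16: TMM, filterByExpr (count of at least 10, total of at least 15), and the robust quasi-likelihood test on strain, with Benjamini-Hochberg adjusted p under 0.05 over 11149 genes. Standard errors were taken as the absolute log2 fold change over the root of F. CPM uses TMM-scaled library sizes. The deposited FPKM served to compare levels between genes and to derive effective lengths, for genes with at least 20 counts. Scripts were tested on simulated counts. Figures used Python 3.11.15, pandas 2.3.3 and matplotlib 3.10.9.

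The chromatin genes and the other gene lists were chosen, as text patterns, with earlier results of these data known. Of the 119 genes, 117 carry RefSeq LOC names and 104 matched the reference table of assembly ASM2018417v2, used for neighbouring genes alone. Roles came from text patterns, and 3 genes were moved by hand after their texts were read. Named genes are those called with at least a 2-fold change, the greatest called change of each role per direction, the most abundant gene of each role by FPKM, and every core histone, linker histone and DNA methylation gene. The remaining called genes and other genes of a role were named outside that rule, with their values known. Other settings tried were library totals alone, DESeq2 size factors, the DESeq2 1.42.0 Wald test, no filter, a filter on CPM above 1 in 3 or more libraries, the replicate number as a block, each library left out, and support in a second annotation, the last chosen after seeing the data.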

Additional observations from a re-analysis of the deposited data

How the results depend on the processing

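Of the 35 chromatin genes called, 12 were called under all 12 alternatives and 23 lost the call under at least 1. With library totals alone 6 chromatin genes rose in place of 10 and their median log2 fold change was -0.29 in place of -0.15, while the median of all genes moved to -0.15. With only the genes supported by a second annotation, an alternative chosen after seeing the data, 6 rose. Without 1 library in turn, 5 to 15 chromatin genes rose and 10 to 36 fell, 1593 to 3249 of all genes rose and 788 to 2826 fell, and the chromatin median lay between -0.10 and -0.18. The counts over all chromatin genes and over all tested genes stayed within 1.5 times under DESeq2 size factors, the DESeq2 test and both other filters. By role, 4 remodellers and 3 acetyltransferases fell and 1 chaperone rose under the DESeq2 test, in place of 2, 1 and 0, and 1 reader fell in place of 2 under either other filter. None of the named genes that were called changed direction under the 12 alternatives, whereas the uncalled H2AV gene did with library totals alone and the uncalled LOC114120144, LOC114123222 and LOC114129277 did without at least 1 resistant library. Of 33 named genes, 4 lost a call and 1 gained one with library totals alone, 1 lost it without the low-count filter, and between 1 and 12 lost it without 1 library.

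With the replicate number as a block, 8 chromatin genes rose and 19 fell, and 9 of the 35 calls were lost, those of Rpd3, JmjC LOC114125970, LOC114128176, H1A-like LOC114130143, LOC114130422, MYSM1, HPF1, Pcl and LOC114125397. The numbers share no more than a label: deviations of same-numbered libraries correlated at -0.011, -0.03 and -0.015, and other pairs between -0.012 and 0.04. Depth limits the 11 untested genes, and the few reads of H2B-like, H1A-like and chromobox protein homolog 5-like genes leave their fold changes imprecise.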
